A study of Homo sapiens with 8 samples.

Results

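The RNA of 39 genes of the unfolded protein response and the integrated stress response was followed in HBL-1 and BJAB, 2 established human B-cell lymphoma lines. The genes were chosen by symbol and by what they are known to do, and no threshold on a measured value decided which were taken. Earlier results of these data were known when the choice was made, so it was not blind to them. All 39 were measured, out of 33616 genes on the arrays whose transcript cluster carried a single symbol. By role, 11 of them serve folding in the endoplasmic reticulum, 4 serve degradation of misfolded proteins, 5 are sensors or regulators, 9 are transcription factors and targets of the integrated stress response, 7 are enzymes of amino acid and one-carbon metabolism and 3 are parts of amino acid transporters.

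HBL-1 is commonly taken as an activated B-cell type of diffuse large-cell lymphoma, while BJAB is usually placed with the germinal-centre type. Each line was kept for 6 h with recombinant APRIL or with EDA, at 1 µg/ml. That gave 4 groups, HBL-1 with EDA, HBL-1 with APRIL, BJAB with EDA and BJAB with APRIL, with 2 arrays in each. APRIL (TNFSF13) binds the receptors BCMA and TACI, while EDA (ectodysplasin A), the control, belongs to that family too but signals through EDAR and EDA2R. No array held cells without a ligand, so a difference between the ligands can come from either of them. The study as titled is about how APRIL reaches BCMA in lymphoma cells, and it names no stress pathway. Whether replicate arrays stem from separate cultures is not stated, so p-values here measure the spread between arrays, which may be technical.

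Proteins that enter the secretory pathway fold in the endoplasmic reticulum with the help of chaperones, and chains that fail to fold are sent back to the cytosol and degraded. When unfolded chains build up, the membrane sensors ATF6, IRE1 (ERN1) and PERK (EIF2AK3) switch on the unfolded protein response, which raises chaperones and degradation factors. PERK and other kinases, among them one that senses a lack of amino acids, phosphorylate the translation factor eIF2, and translation of ATF4 then turns on genes for amino acid supply and redox balance, the integrated stress response. In the B lineage the IRE1 and XBP1 arm is best known from plasma cells, which secrete antibody in bulk.

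The values were log2 signals made by the authors with RMA, which corrects the background, normalizes the arrays and summarises the probes. A level can be compared between arrays for the same gene, but not between genes, because probes differ in brightness. Array medians over all genes ran from 5.58 to 5.74, the highest being HBL-1 with APRIL replicate 2. Replicates correlated at 0.989 to 0.993 across genes, arrays of different ligands in a line at 0.988 to 0.993, and arrays of different lines at 0.942 to 0.946. The 6 B-cell markers used here were high on every array, with CD79A at 15.39 to 16.08 and MS4A1 at 9.79 to 12.75. Of 6 markers of T and NK cells, CD2, CD8A and GNLY lay between 3.21 and 4.49 on all arrays. NKG7 read 6.11 to 7.46 over both lines, CD3D 3.9 to 4.08 in HBL-1 and 5.11 to 6.28 in BJAB, and CD3E 6.5 to 7.02 in HBL-1 and 7.27 to 8.21 in BJAB. The 6 myeloid markers lay between 3.4 and 6.1. Of 6 stromal and epithelial markers, the collagen genes COL1A1 and COL1A2 read 8.05 to 10.82. The cluster of COL1A1 did not match the reference gene by number. EPCAM read 3.88 to 5.93, KRT8 7.14 to 7.68, KRT18 3.2 to 3.94 and PDGFRB 4.65 to 5.3. The RNA came from whole cultures, so fewer cells with a transcript and less of it per cell cannot be told apart.

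Promoters of the chaperone genes and of the amino acid genes carry different known elements, and 5 of them are shown as examples of the elements in genes described below. RefSeq promoters of GRCh38.p14, from 250 bases before to 50 after the annotated start, were at hand for 35 of the 39 genes. SLC7A11, PSPH, SHMT2 and ALDH1L2 had no entry. The windows are HSPA5 at chr9:125241294-125241593 on the minus strand, CALR at chr19:12938359-12938658 on the plus strand, HERPUD1 at chr16:56931892-56932191 on the plus strand, ASNS at chr7:97872359-97872658 on the minus strand and CHAC1 at chr15:40953221-40953520 on the plus strand. Each is written 5′ to 3′ along its gene. Capitals mark the ER stress element in HSPA5 and CALR, the ER stress element II in HERPUD1 and the C/EBP-ATF element in ASNS and CHAC1. In CALR and CHAC1 the element lies on the opposite strand, so its letters appear there as the reverse complement.
HSPA5: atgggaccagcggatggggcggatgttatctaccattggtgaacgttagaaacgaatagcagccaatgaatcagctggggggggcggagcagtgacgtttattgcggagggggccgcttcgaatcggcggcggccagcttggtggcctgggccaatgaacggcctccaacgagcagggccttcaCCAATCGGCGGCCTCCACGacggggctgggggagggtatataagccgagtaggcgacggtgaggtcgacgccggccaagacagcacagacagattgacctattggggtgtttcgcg
CALR: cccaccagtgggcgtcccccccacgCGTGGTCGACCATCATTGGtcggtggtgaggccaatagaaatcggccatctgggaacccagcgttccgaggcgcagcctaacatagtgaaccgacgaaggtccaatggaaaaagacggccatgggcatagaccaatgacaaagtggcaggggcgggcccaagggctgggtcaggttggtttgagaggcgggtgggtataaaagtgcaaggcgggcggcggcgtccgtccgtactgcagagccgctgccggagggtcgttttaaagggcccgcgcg
HERPUD1: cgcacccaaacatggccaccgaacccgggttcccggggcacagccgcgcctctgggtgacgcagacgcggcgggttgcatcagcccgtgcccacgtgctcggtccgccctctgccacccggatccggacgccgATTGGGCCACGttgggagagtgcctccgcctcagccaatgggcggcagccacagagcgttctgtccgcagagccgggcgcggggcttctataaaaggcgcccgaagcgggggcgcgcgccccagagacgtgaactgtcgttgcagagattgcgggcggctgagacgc
ASNS: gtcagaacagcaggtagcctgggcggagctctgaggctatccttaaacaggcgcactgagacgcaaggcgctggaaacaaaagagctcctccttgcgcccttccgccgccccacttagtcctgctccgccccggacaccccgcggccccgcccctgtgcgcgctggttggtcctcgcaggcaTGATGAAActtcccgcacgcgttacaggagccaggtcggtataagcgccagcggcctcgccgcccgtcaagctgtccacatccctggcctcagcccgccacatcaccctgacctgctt
CHAC1: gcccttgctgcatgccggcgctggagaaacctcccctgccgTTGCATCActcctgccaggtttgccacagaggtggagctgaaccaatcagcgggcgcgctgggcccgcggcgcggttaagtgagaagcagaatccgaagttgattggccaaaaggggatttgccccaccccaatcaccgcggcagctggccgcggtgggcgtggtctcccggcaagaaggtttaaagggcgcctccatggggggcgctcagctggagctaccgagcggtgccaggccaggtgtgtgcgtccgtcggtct

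The ER stress element, CCAAT and CCACG held apart by 9 bases, was present in 5 of the 11 folding promoters, those of HSPA5, HSP90B1, PDIA6, CALR and CANX. It was present in none of the 15 promoters of integrated stress and amino acid genes, and in 0.0916% of the 27305 genes with a promoter. The ER stress element II, ATTGGNCCACG, was found in HERPUD1 and SDF2L1 and in 0.0696% of all genes. The C/EBP-ATF element, TGATGNAA, was found in ASNS, ATF3, CHAC1 and SLC3A2 and, among the chaperone and degradation genes, in HERPUD1. It stood in 4.46% of all genes. The core of the unfolded protein response element, TGACGTGG, was in none of the 35 promoters and in 0.927% of all genes. Both strands were searched, and the letters CCACG end both ER stress elements and open CCACGTCA, which is the core on the other strand, so matches can overlap. A match says only that the letters are there.

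**Figure D1:**
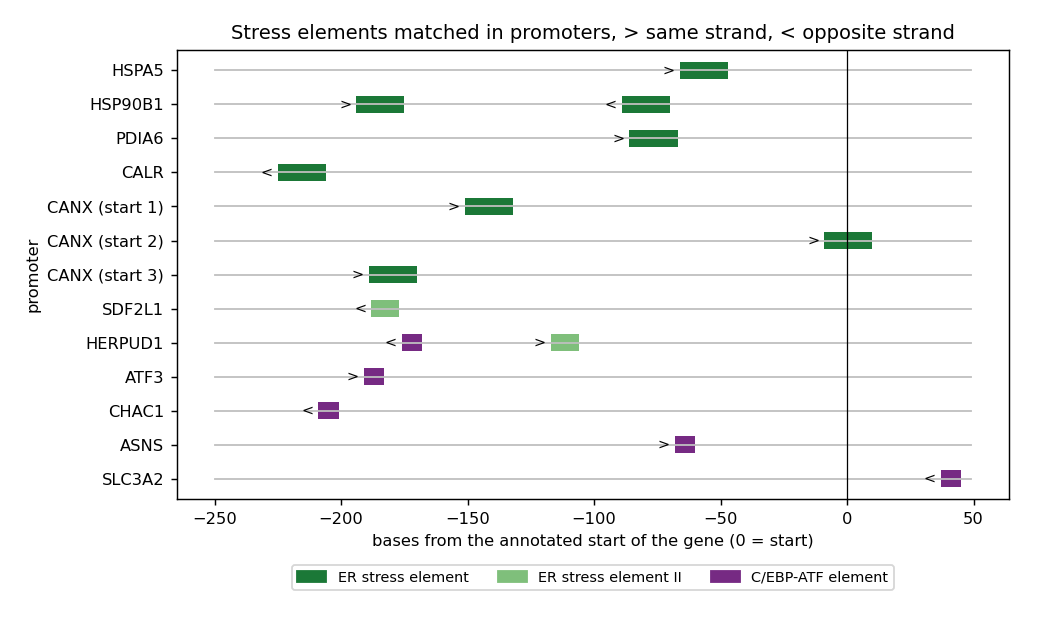
Elements matched in the promoters of stress response genes, plotted by distance in bases from the annotated start, with > for the strand of the gene and < for the opposite strand. CANX has several annotated starts in the table. The ER stress element falls in folding genes, and the ER stress element II in SDF2L1 and the degradation gene HERPUD1. The C/EBP-ATF element falls mostly in genes of the integrated stress response, and HERPUD1 holds it beside its ER stress element II.

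The first comparison set the lines against each other, with the 4 arrays of HBL-1 against the 4 of BJAB over both ligands. Of the 39 genes, 22 passed at an adjusted p under 0.05 (limma, Benjamini-Hochberg over 33616 genes), 13 higher and 9 lower in HBL-1. Over all genes, 24.2% passed, 10.3% higher and 13.9% lower. Among protein-coding genes above the median level of all genes, called the brighter protein-coding genes here, where all members but VLDLR and CHAC1 lie, 50.1% passed, so the members' share of 56.4% was near that of genes measured at such levels. For 14 members all HBL-1 arrays lay above all BJAB arrays and for 10 they lay below, against 25.9% of all genes in either direction. Of the 10914 brighter protein-coding genes, 2429 lay above and 3157 below in the same way. What the lines show is therefore which members were higher and which lower, rather than how many.

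The chaperone and degradation genes did not shift together. Of these 15, 5 were higher and 2 lower in HBL-1, and their median difference was 0.10 on the log2 scale, against 0.01 for all genes. Of the 19 integrated stress and amino acid genes, 4 were higher and 7 lower, with a median of -0.22. Of the 5 sensors and regulators, 4 were higher, with a median of 1.34. These counts describe the lists, and the lists were not tested against each other.

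**Figure D2:**
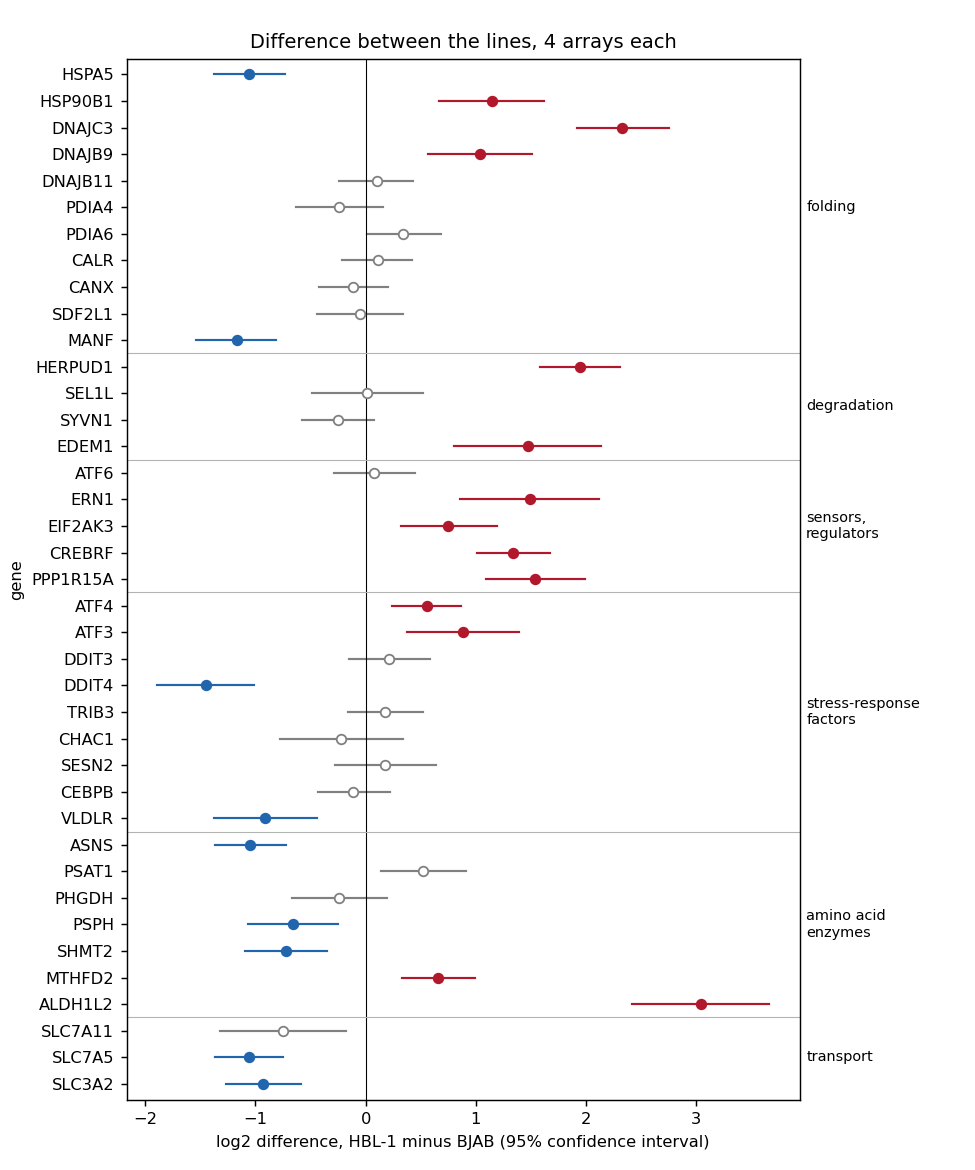
Difference between the lines for each of the 39 genes, HBL-1 minus BJAB over both ligands, on the log2 scale, with 95% confidence intervals from limma and 4 arrays per line. Filled points passed at an adjusted p under 0.05, red for higher and blue for lower in HBL-1, and open points did not pass. Folding genes stand on either side of 0, from MANF at -1.17 to DNAJC3 at 2.33, while SLC7A5 and SLC3A2 are lower in HBL-1.

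Array values below are in the order EDA replicate 1, EDA replicate 2, APRIL replicate 1 and APRIL replicate 2. Among the folding genes, DNAJC3 differed most. It encodes p58IPK, a co-chaperone of the endoplasmic reticulum that also restrains PERK. Its log2 signals were 12.31, 11.79, 11.96 and 12.43 in HBL-1 and 9.92, 10.06, 9.4 and 9.77 in BJAB. All HBL-1 arrays lay above all BJAB arrays, and the difference was 2.33 (SE 0.19, 5.04-fold higher, adjusted p = 5.8e-06). HSPA5, which encodes BiP, the main Hsp70 chaperone of the endoplasmic reticulum, went the other way. It read 14.76, 14.6, 14.5 and 14.77 in HBL-1 against 15.88, 15.83, 15.64 and 15.5 in BJAB. Again the lines did not overlap, with a difference of -1.06 (SE 0.15, 2.08-fold lower in HBL-1, adjusted p = 0.00034). MANF, a secreted stress factor that binds BiP, read 14.34, 14.15, 14.1 and 14.52 in HBL-1 and 15.53, 15.26, 15.62 and 15.4 in BJAB. Its difference was -1.17 (SE 0.16, adjusted p = 0.00036). DNAJB9 (ERdj4), a co-chaperone that is a target of the IRE1 arm, was 1.04 higher in HBL-1 (SE 0.21, adjusted p = 0.0043). XBP1 of the same arm, not among the members and named outside the rule, differed by 0.06 (SE 0.17, adjusted p = 0.86). That value is a signal for the whole cluster and does not tell spliced from unspliced XBP1 RNA.

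Among the members, neither the lectin chaperones nor the protein disulfide isomerases PDIA4 and PDIA6 passed. Outside the members, isomerases such as P4HB, at 1.18 (SE 0.17, adjusted p = 0.00044), and PDIA3, given below, did pass. P4HB was named after its values were seen. The log2 difference between the lines was 0.11 for CALR (95% CI -0.21 to 0.42), -0.11 for CANX (-0.42 to 0.20), -0.24 for PDIA4 (-0.63 to 0.16) and 0.34 for PDIA6 (0.01 to 0.68, adjusted p = 0.14). CALR (calreticulin) and CANX (calnexin) hold glycoproteins while they fold. DNAJB11 differed by 0.10 (-0.24 to 0.43) and SDF2L1, its partner in a BiP complex, by -0.05 (-0.44 to 0.34). A further DNAJB11 cluster, also matched by gene number, leaned the other way, at 13.92 to 14.22 in HBL-1 and 14.22 to 14.26 in BJAB. Arrays of the lines overlapped for CALR, PDIA4, the brighter DNAJB11 cluster and SDF2L1. They did not for PDIA6, which was higher, and CANX, which was lower in HBL-1.

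HSP90B1, the gene of the Hsp90 chaperone GRP94, is uncertain on these arrays. The cluster named for it alone read 8.47, 7.67, 8.88 and 8.66 in HBL-1 and 7.79, 7.25, 7.2 and 6.84 in BJAB, a difference of 1.15 (SE 0.21, adjusted p = 0.0025) with overlapping arrays. This cluster carries no gene number, while those of the other 38 genes matched the reference gene by number. A second cluster, annotated to HSP90B1 together with the microRNA MIR3652, read 17.21 to 17.56 in HBL-1 and 16.99 to 17.09 in BJAB, with a difference of 0.36 (SE 0.15, adjusted p = 0.12). With that cluster in its place, 21 members passed.

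The 4 promoters with an ER stress element whose genes had a numbered cluster thus went with line differences of -1.06 for HSPA5, 0.34 for PDIA6, 0.11 for CALR and -0.11 for CANX. Of these, HSPA5 alone passed.

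Of the 4 degradation genes, HERPUD1 and EDEM1 were higher in HBL-1. HERPUD1 encodes Herp, a membrane protein of the ubiquitin ligase complex that draws misfolded proteins out of the endoplasmic reticulum. It read 13.64, 13.6, 13.65 and 14.02 in HBL-1 and 11.83, 11.62, 11.65 and 12.03 in BJAB, a difference of 1.95 (SE 0.16, 3.85-fold, adjusted p = 8.2e-06). EDEM1, a lectin that picks out misfolded glycoproteins, read 8.46, 7.53, 7.83 and 8.39 in HBL-1 and 6.41, 6.49, 7.37 and 6.07 in BJAB. Its spread was wider, but the lines did not overlap, and the difference was 1.47 (SE 0.30, adjusted p = 0.0043). A further cluster with the symbol EDEM1, but without its gene number, read 7.18 to 7.85 in HBL-1 and 6.59 to 7.42 in BJAB, with overlap between the lines. SYVN1 (HRD1), the ubiquitin ligase of that complex, differed by -0.25 (95% CI -0.58 to 0.08). SEL1L, its adaptor, differed by 0.01 (-0.49 to 0.52). The ligase and its adaptor therefore did not pass in the comparison in which Herp did.

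The sensors and regulators were the role group with the largest share higher in HBL-1. ERN1, the IRE1 kinase and RNase, read 9.48, 9.05, 9.13 and 9.58 in HBL-1 and 8.25, 7.9, 6.86 and 8.26 in BJAB, 1.49 higher (SE 0.28, adjusted p = 0.0027). EIF2AK3, the PERK kinase, read 9.86, 9.5, 9.2 and 9.95 against 9.13, 8.97, 8.85 and 8.56, 0.75 higher (SE 0.20, adjusted p = 0.017). Neither gene's arrays overlapped between the lines. The EIF2AK3 call was lost on leaving out HBL-1 with EDA replicate 1 (0.66, adjusted p = 0.065), BJAB with EDA replicate 2 (0.71, adjusted p = 0.06) or BJAB with APRIL replicate 2 (0.68, adjusted p = 0.065). ATF6, the third sensor, differed by 0.08 (95% CI -0.29 to 0.45).

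PPP1R15A encodes GADD34, the phosphatase subunit that reverses the phosphorylation of eIF2. It read 10.12, 10.15, 10.35 and 11.18 in HBL-1 and 8.64, 8.72, 9.37 and 8.92 in BJAB, 1.54 higher in HBL-1 (SE 0.20, 2.9-fold, adjusted p = 0.00023). CREBRF encodes a leucine-zipper protein that promotes the breakdown of the stress factor CREB3. Its line difference of 1.34 (SE 0.15, adjusted p = 6.3e-05) averages BJAB arrays that fell into separate ranges by ligand. That ligand difference did not pass in the same model (adjusted p = 0.79). HBL-1 read 9.09, 8.84, 8.84 and 9.05, while BJAB read 6.91 and 6.96 with EDA and 8.21 and 8.37 with APRIL.

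**Figure D3:**
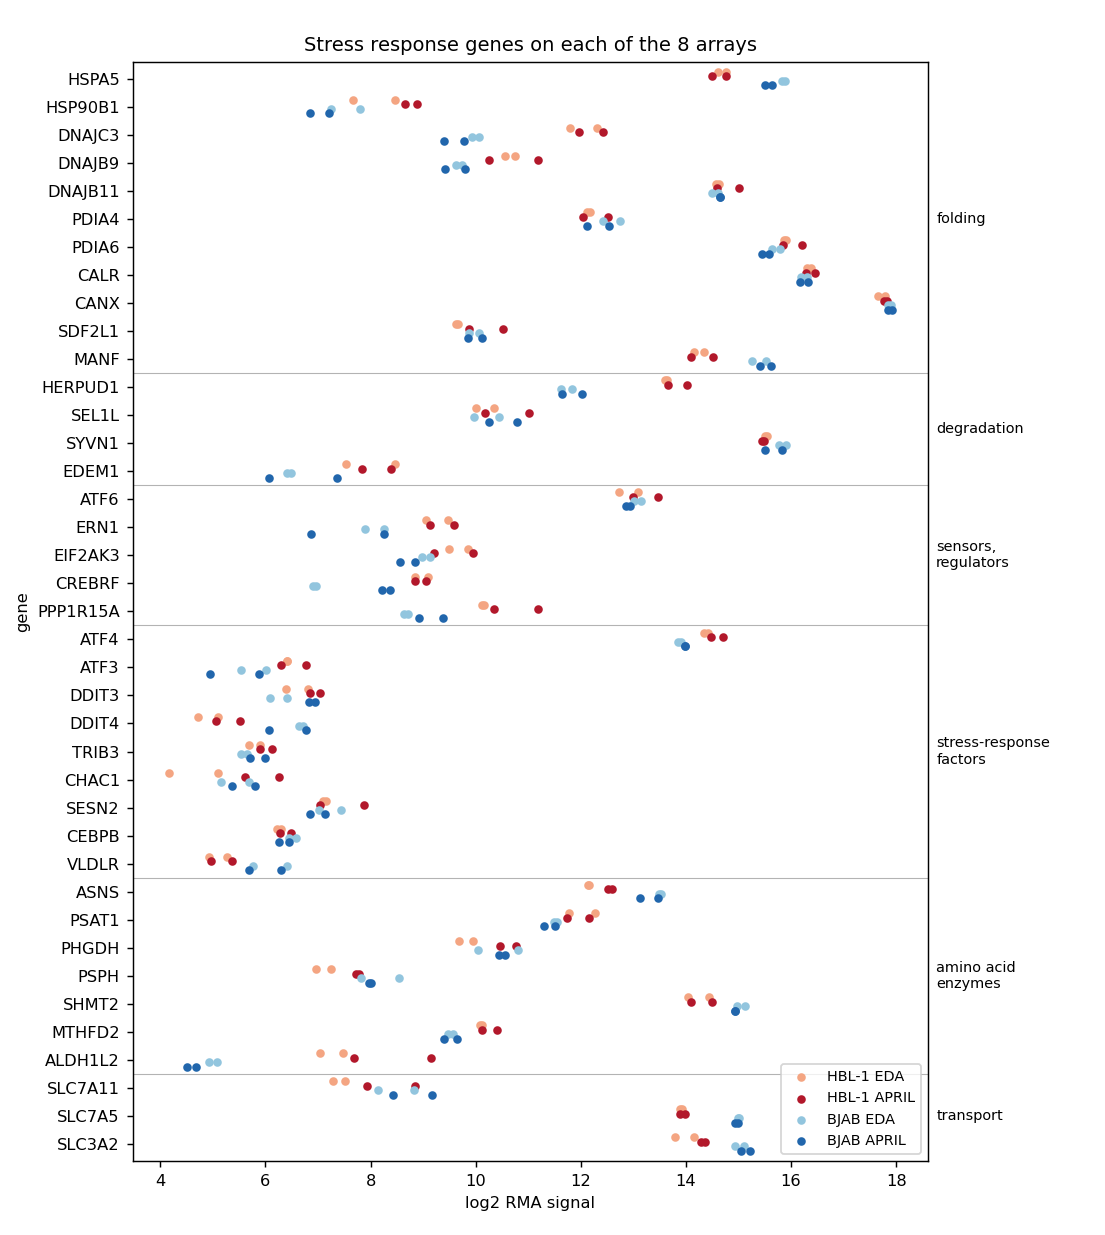
Log2 RMA signal of the 39 genes on each of the 8 arrays, grouped by role, with each point 1 array and colours for the 4 groups. The lines separate for genes such as DNAJC3, HERPUD1, ASNS and ALDH1L2. Within BJAB the ligands separate for CREBRF, which did not pass (limma, adjusted p = 0.79), and for other members. With APRIL 6 members lay higher without overlap, against 17.3% of all genes, and 10 lower, against 17%. Positions along the axis compare arrays within a gene and not genes with each other.

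The factors and targets of the integrated stress response were split. ATF4, the central transcription factor, read 14.42, 14.34, 14.48 and 14.7 in HBL-1 and 13.85, 13.91, 13.98 and 13.98 in BJAB, 0.56 higher in HBL-1 (SE 0.14, adjusted p = 0.015). Without BJAB with EDA replicate 1 the ATF4 difference was 0.54 and no longer passed (adjusted p = 0.058). ATF3, a factor induced through ATF4, read 6.41, 6.4, 6.3 and 6.78 against 6.01, 5.54, 5.87 and 4.94, a difference of 0.88 (SE 0.23, adjusted p = 0.016). Without HBL-1 with APRIL replicate 2, BJAB with EDA replicate 2 or BJAB with APRIL replicate 2, ATF3 stood at 0.76, 0.77 and 0.65, with adjusted p = 0.064, 0.064 and 0.053.

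DDIT4 and VLDLR were lower in HBL-1. DDIT4 (REDD1), an inhibitor of mTORC1, read 5.1, 4.71, 5.06 and 5.51 in HBL-1 and 6.71, 6.64, 6.77 and 6.07 in BJAB, a difference of -1.45 (SE 0.20, 2.73-fold lower, adjusted p = 0.00031). VLDLR, a lipoprotein receptor that is an ATF4 target, read 4.93, 5.26, 4.96 and 5.37 against 5.76, 6.41, 6.3 and 5.69, a difference of -0.91 (SE 0.21, adjusted p = 0.0094). For each gene every HBL-1 array lay below every BJAB array, and both genes lay near the median level of all genes. The other 5, DDIT3 (CHOP), TRIB3, CHAC1, SESN2 and CEBPB, did not pass, with differences between -0.22 for CHAC1 and 0.21 for DDIT3.

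The enzymes of amino acid and one-carbon metabolism also went both ways. ALDH1L2, a mitochondrial folate enzyme, differed more than any other of the 39 genes. It read 7.47, 7.04, 7.69 and 9.14 in HBL-1 and 4.92, 5.08, 4.67 and 4.51 in BJAB, 3.04 higher in HBL-1 (SE 0.28, 8.23-fold, adjusted p = 1.6e-05). Its BJAB values lay below the lowest array median over all genes, 5.58, so the size of the fold rests on dim readings. MTHFD2, another mitochondrial folate enzyme, read 10.11, 10.09, 10.12 and 10.41 against 9.57, 9.47, 9.65 and 9.4, 0.66 higher (SE 0.15, adjusted p = 0.0079). ASNS, the synthetase that makes asparagine, read 12.14, 12.16, 12.51 and 12.6 in HBL-1 and 13.48, 13.52, 13.13 and 13.46 in BJAB, a difference of -1.05 (SE 0.15, 2.06-fold lower, adjusted p = 0.00035). SHMT2, which splits serine into glycine and a one-carbon unit in mitochondria, read 14.44, 14.04, 14.1 and 14.5 against 14.97, 15.12, 14.93 and 14.94, a difference of -0.72 (SE 0.16, adjusted p = 0.0083). For all of ALDH1L2, MTHFD2, ASNS and SHMT2 the lines did not overlap.

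The serine pathway proper was less clear. PSPH, its last enzyme, differed by -0.66 (SE 0.18, adjusted p = 0.024), and the call was lost in 6 of the 8 fits that left out an array, with values from -0.48 to -0.67 and adjusted p-values up to 0.099, and under quantile normalization (-0.55, adjusted p = 0.054) and cyclic loess (-0.55, adjusted p = 0.051). PSPH kept its call without HBL-1 with EDA replicate 2 and without BJAB with EDA replicate 2. PSAT1 differed by 0.52 (SE 0.17, adjusted p = 0.053) and PHGDH, the first enzyme, by -0.24 (95% CI -0.67 to 0.19).

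Of the 3 transporter subunits, SLC7A5 and SLC3A2 were lower in HBL-1 and SLC7A11 did not pass. SLC7A5 (LAT1), which carries large neutral amino acids, read 13.92, 13.88, 13.88 and 13.99 in HBL-1 and 14.99, 15, 14.99 and 14.94 in BJAB, a difference of -1.06 (SE 0.14, adjusted p = 0.00021). SLC3A2 (CD98), the heavy chain that LAT1 needs at the membrane, read 14.16, 13.8, 14.28 and 14.37 against 15.11, 14.94, 15.05 and 15.22, a difference of -0.93 (SE 0.15, adjusted p = 0.0011). These subunits of the same transporter were thus higher on every BJAB array. SLC7A11 (xCT), which pairs with the same heavy chain and imports cystine, differed by -0.75 (SE 0.26, adjusted p = 0.061), with overlapping arrays.

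In HBL-1, APRIL was then set against EDA. None of the 39 genes passed, and over all genes 1 passed, which is 0.00297%. At an unadjusted p under 0.05 there were 7 of the 39, against 8.83% of all genes and 11.9% of the brighter protein-coding genes. The arrays did not overlap and were higher with APRIL for 15 members, against 25.4% of all genes and 37.8% of the brighter protein-coding genes. They were lower for 1, SYVN1, against 11.1% of all genes and 292 of the 10914 brighter protein-coding genes. The count of 15 is near what the brighter genes show.

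HBL-1 with APRIL replicate 2 read higher than its partner over much of the array, beside which these counts stand, and its part in them was not tested. Against the EDA mean, the median over brighter protein-coding genes was 0.07 in replicate 1 and 0.38 in replicate 2. For the chaperone and degradation genes it was -0.06 and 0.38, and for the integrated stress and amino acid genes 0.16 and 0.38. The mean of the replicates gave medians of 0.14 and 0.34 for these lists, beside 0.22 for the brighter protein-coding genes and 0.10 for all genes. Without replicate 2 the medians of the lists were -0.06 and 0.16.

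The members with the smallest p-values in HBL-1 were mostly genes of the integrated stress response. CHAC1, which breaks down glutathione and is an ATF4 target, read 5.1 and 4.16 with EDA and 5.61 and 6.26 with APRIL. The groups did not overlap, and the difference was 1.30 (SE 0.36, unadjusted p = 0.00433, adjusted p = 0.44), at a mean level below the median of all genes. It was 0.98 without APRIL replicate 2 and 0.83 without EDA replicate 2. ALDH1L2 read 7.47 and 7.04 with EDA and 7.69 and 9.14 with APRIL, a difference of 1.16 (SE 0.39, unadjusted p = 0.0141, adjusted p = 0.49). The higher of its APRIL arrays was replicate 2, and without that array the difference was 0.44. PHGDH read 9.69 and 9.95 with EDA and 10.47 and 10.77 with APRIL, a difference of 0.80 (SE 0.27, unadjusted p = 0.0153, adjusted p = 0.49), and 0.65 without replicate 2. Its lowest value under any alternative was 0.22. A dim further cluster with the symbol PHGDH, but without its gene number, went the other way. That cluster read 4.38 and 4.46 with EDA and 3.94 and 4.18 with APRIL.

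Others were picked out after their values were seen. SLC7A11 read 7.52 and 7.29 with EDA and 8.85 and 7.93 with APRIL, a difference of 0.98 (SE 0.36, adjusted p = 0.51). Its higher APRIL array was replicate 1, and the difference was 0.52 without replicate 1 and 1.45 without replicate 2. PSPH read 6.96 and 7.24 with EDA and 7.78 and 7.73 with APRIL, a difference of 0.65 (SE 0.26, adjusted p = 0.53) that was 0.68 without replicate 2. ASNS read 12.14 and 12.16 against 12.51 and 12.6, a difference of 0.41 (SE 0.21, adjusted p = 0.6). In these 3 genes, as in CHAC1, ALDH1L2 and the brighter PHGDH cluster, the APRIL arrays stood above the EDA arrays in both replicates. The same was true of 25.4% of all genes and 37.8% of the brighter protein-coding genes. SLC7A5 gave 0.04 (95% CI -0.39 to 0.47), SHMT2 0.06 (-0.46 to 0.58) and PSAT1 -0.07 (-0.62 to 0.48). DDIT3 gave 0.34, ATF4 0.21 and TRIB3 0.22, each with groups that did not overlap and none passing the test.

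**Figure D4:**
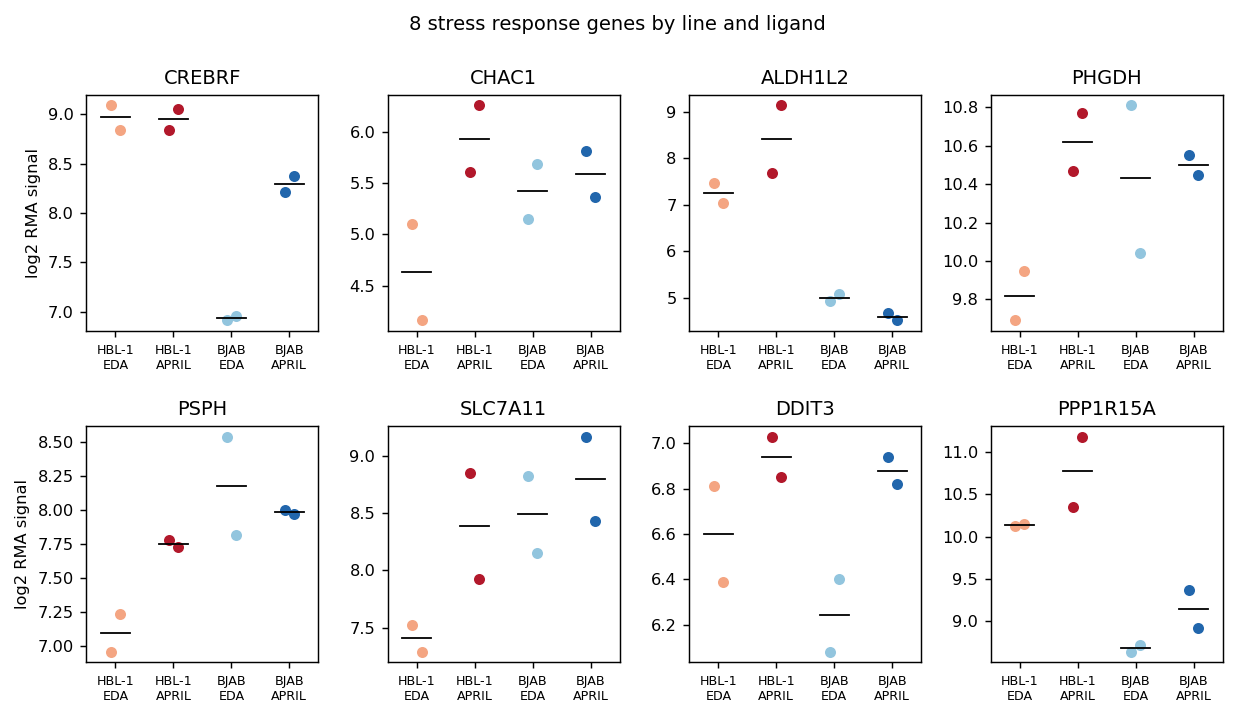
Log2 RMA signal of 8 of the genes by line and ligand, with each point 1 array and a bar at the mean of the 2 arrays. Each panel has its own axis, which does not start at 0. CREBRF in BJAB reads 6.91 and 6.96 with EDA and 8.21 and 8.37 with APRIL, and the wide gap between the HBL-1 APRIL arrays of ALDH1L2 is visible.

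For the chaperone and degradation genes the differences in HBL-1 ran from -0.06 to 0.70. The cluster named HSP90B1 read 8.47 and 7.67 with EDA and 8.88 and 8.66 with APRIL, a difference of 0.70 (SE 0.30, adjusted p = 0.56), while the cluster it shares with MIR3652 gave 0.07 (SE 0.21, adjusted p = 0.94). Without EDA replicate 2 the first of these was 0.30. SDF2L1 read 9.63 and 9.66 with EDA and 9.88 and 10.52 with APRIL, a difference of 0.56 (SE 0.25, adjusted p = 0.56) that was 0.24 without replicate 2. SEL1L read 10.34 and 10 against 10.17 and 11.01, with overlapping groups and a difference of 0.42 (SE 0.32, adjusted p = 0.73) that was 0 without APRIL replicate 2. HSPA5 gave -0.04 (95% CI -0.51 to 0.42), CALR 0.03 (-0.42 to 0.48), DNAJC3 0.14 (-0.44 to 0.73) and HERPUD1 0.21 (-0.30 to 0.72). Of the regulators, PPP1R15A read 10.12 and 10.15 with EDA and 10.35 and 11.18 with APRIL, a difference of 0.63 (SE 0.29, adjusted p = 0.57) that was 0.21 without replicate 2. CREBRF gave -0.02 (95% CI -0.48 to 0.45).

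In BJAB, none of the 39 genes passed for APRIL against EDA, and of all genes 0% did. At an unadjusted p under 0.05 there were 2 of the 39, CREBRF and DDIT3, against 4.06% of all genes. The arrays did not overlap and were higher with APRIL for 6 members, against 17.3% of all genes, and lower for 10, against 17%. The median was 0.01 for chaperone and degradation genes and -0.09 for integrated stress and amino acid genes, beside 0 for all genes.

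CREBRF stood out among the members in BJAB. It read 6.91 and 6.96 with EDA and 8.21 and 8.37 with APRIL, a difference of 1.35 (SE 0.21, 2.55-fold, 95% CI 0.89 to 1.82, unadjusted p = 7.08e-05). Only 2 of the 33616 genes had a smaller p in this comparison, yet with that many tests the adjusted p was 0.79. Leaving out each BJAB array in turn gave 1.27 to 1.43. The BJAB APRIL arrays still lay below all 4 HBL-1 arrays, of which the lowest was 8.84. CREBRF was picked out after its values were seen.

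DDIT3 (CHOP), a transcription factor of prolonged stress, read 6.08 and 6.4 with EDA and 6.94 and 6.82 with APRIL in BJAB, a difference of 0.64 (SE 0.23, unadjusted p = 0.0196, adjusted p = 1). TRIB3, a pseudokinase that CHOP and ATF4 induce, read 5.65 and 5.54 against 5.71 and 5.99, a difference of 0.25 (SE 0.21) that was 0.11 without APRIL replicate 2. ATF3 read 6.01 and 5.54 against 5.87 and 4.94, with overlapping groups and a difference of -0.37 (SE 0.32) that was 0.09 without APRIL replicate 2 and -0.14 without EDA replicate 1. The signs thus differed among these factors of the same response, and none passed. PPP1R15A, also chosen after its values were seen, read 8.64 and 8.72 against 9.37 and 8.92, a difference of 0.46 (SE 0.29, adjusted p = 1) that was 0.24 without APRIL replicate 1.

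Among the chaperones in BJAB, HSPA5 read 15.88 and 15.83 with EDA and 15.64 and 15.5 with APRIL, a difference of -0.29 (SE 0.21, adjusted p = 1). DNAJC3 read 9.92 and 10.06 against 9.4 and 9.77, a difference of -0.40 (SE 0.26, adjusted p = 1). The cluster named HSP90B1 read 7.79 and 7.25 against 7.2 and 6.84, a difference of -0.50 (SE 0.30, adjusted p = 1), and the cluster shared with MIR3652 gave 0.06. Of the 11 folding genes, 4 had APRIL arrays below the EDA arrays without overlap (these 3 and PDIA6), against 17% of all genes. Of the 11, DNAJB11 had them above, against 17.3% of all genes, 5 had a positive difference and none passed. The cluster shared with MIR3652 went opposite to the one named HSP90B1, at 16.99 and 17.02 with EDA and 17.03 and 17.09 with APRIL. DNAJC3 was -0.21 without APRIL replicate 1, and the HSP90B1 cluster was -0.23 without EDA replicate 1 and -0.32 without APRIL replicate 2. ASNS gave -0.21 (95% CI -0.67 to 0.26), PHGDH 0.07 (-0.53 to 0.68) and CHAC1 0.17 (-0.62 to 0.96) in BJAB.

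**Figure D5:**
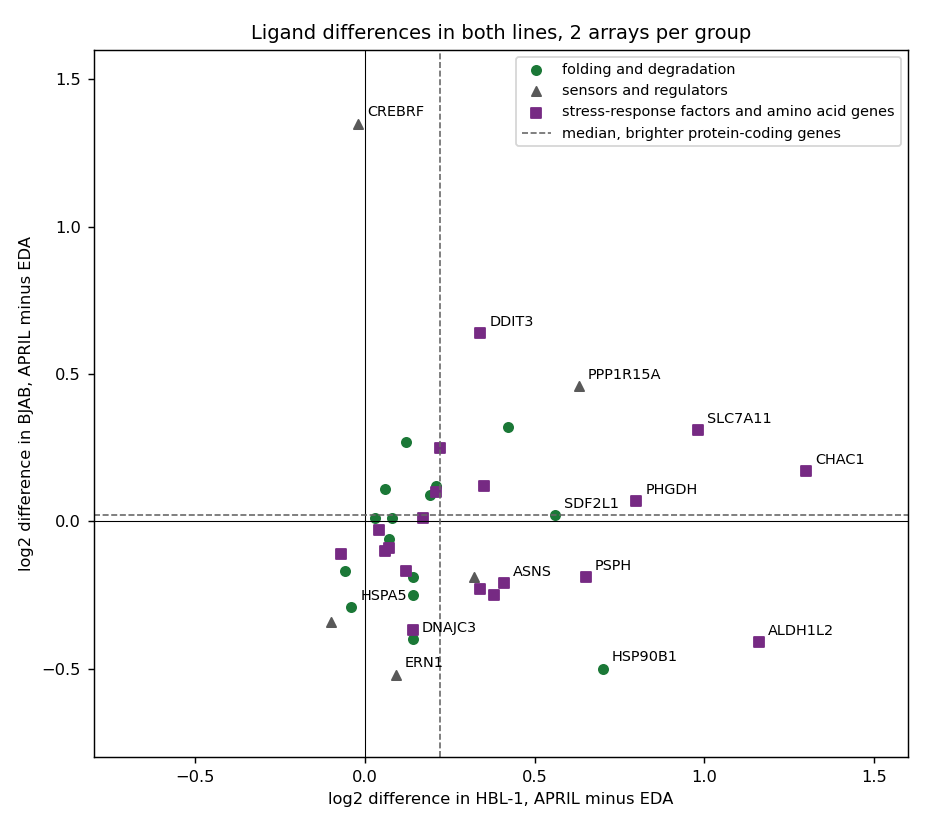
Log2 difference APRIL minus EDA in HBL-1 (horizontal) against that in BJAB (vertical) for the 39 genes, with 2 arrays in each group and a marker for each role. Dashed lines mark the median of the brighter protein-coding genes, 0.22 in HBL-1 and 0.02 in BJAB. CREBRF is high in BJAB alone, at 1.35 against -0.02, and ALDH1L2, SLC7A11, PHGDH, PSPH, ASNS and SLC3A2 lie right of the HBL-1 median while PSAT1, SHMT2, MTHFD2 and SLC7A5 lie left of it. No point passed the test in either line.

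Averaged over both lines, APRIL against EDA called none of the members and 0 of all genes. At an unadjusted p under 0.05 there were 6 of the 39, against 6.91% of all genes. CREBRF gave 0.67 (SE 0.15, adjusted p = 0.59), which averages 1.35 in BJAB with -0.02 in HBL-1. PPP1R15A gave 0.54 (SE 0.20, adjusted p = 0.68) and DDIT3 0.49 (SE 0.16, adjusted p = 0.67). For both genes the APRIL arrays stood above the EDA arrays in each line, as they did for ATF4 and TRIB3. Line by line, 25.4% of all genes did so in HBL-1 and 17.3% in BJAB, and the share doing so in both was not counted. CHAC1 gave 0.74 (SE 0.25, adjusted p = 0.67) and SLC7A11 0.65 (SE 0.26, adjusted p = 0.7). The smallest p-values among chaperone and degradation genes belonged to SDF2L1 at 0.29 (SE 0.18) and SEL1L at 0.37 (SE 0.23), each with adjusted p = 0.77, and to HSPA5 at -0.17 (SE 0.15, adjusted p = 0.85). Leaving out each array in turn gave 0.61 to 0.73 for CREBRF, 0.34 to 0.75 for PPP1R15A, 0.38 to 0.59 for DDIT3, 0.5 to 0.97 for CHAC1, 0.42 to 0.88 for SLC7A11, 0.13 to 0.45 for SDF2L1 and 0.16 to 0.58 for SEL1L.

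The difference of the APRIL responses, HBL-1 minus BJAB, passed for none of the members and 0 of all genes. At an unadjusted p under 0.05 there were 5 of the 39, against 5.63% of all genes. CREBRF had the smallest p of the members, with a difference of responses of -1.37 (SE 0.30, unadjusted p = 0.000913, adjusted p = 0.84). ALDH1L2 gave 1.57 (SE 0.55, adjusted p = 0.84), PSPH 0.85 (SE 0.37, adjusted p = 0.86) and CHAC1 1.13 (SE 0.50, adjusted p = 0.88). The cluster named HSP90B1 gave 1.2 (SE 0.43, adjusted p = 0.84) and that shared with MIR3652 gave 0.01 (SE 0.30). SDF2L1 gave 0.54 (SE 0.35, adjusted p = 0.92), as did DNAJC3 (SE 0.37, adjusted p = 0.92). Single arrays moved these values: leaving out each in turn gave 0.85 to 2.3 for ALDH1L2, lowest without HBL-1 with APRIL replicate 2, 0.48 to 1.21 for PSPH, lowest without BJAB with EDA replicate 1, and 0.66 to 1.6 for CHAC1, lowest without HBL-1 with EDA replicate 2. The same gave 0.8 to 1.59 for the cluster named HSP90B1, 0.28 to 0.8 for DNAJC3 (both lowest without HBL-1 with EDA replicate 2), 0.22 to 0.86 for SDF2L1 (lowest without HBL-1 with APRIL replicate 2) and -1.49 to -1.25 for CREBRF. The responses of the lines were therefore not shown to differ for any member. The median difference of responses was 0.11 for chaperone and degradation genes and 0.29 for integrated stress and amino acid genes, beside 0.20 for the brighter protein-coding genes, all with the same raised HBL-1 array among them.

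Further genes of both pathways were read from lists that do not hold the 39. Of 54 further genes of folding, translocation and degradation in the endoplasmic reticulum that were measured, 32 passed between the lines, 21 higher and 11 lower in HBL-1. That is 59.3%, against 24.2% of all genes and 50.1% of the brighter protein-coding genes. Among these, CREB3L2, a membrane-bound relative of ATF6, was 4.92 higher (SE 0.17, adjusted p = 1.1e-08). UFD1, which works with the VCP ATPase in pulling proteins from the membrane, was 1.57 higher (SE 0.16, adjusted p = 3.6e-05). WFS1 (wolframin), a membrane protein of the endoplasmic reticulum, read 5.34 to 6.79 in HBL-1 and 10.71 to 11.27 in BJAB, a difference of -5.01 (SE 0.30, adjusted p = 6.3e-07). PDIA3, a disulfide isomerase that works with CALR and CANX, gave -1.82 (SE 0.20, adjusted p = 5.7e-05).

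Of 47 further genes of the integrated stress response, 19 passed between the lines, 12 higher and 7 lower in HBL-1. That is 40.4%, against 24.2% of all genes and 50.1% of the brighter protein-coding genes, and the median was 0.17 where that of the 19 members was -0.22. PYCR1, the last enzyme of proline synthesis, was 2.10 higher (SE 0.15, adjusted p = 2.2e-06), NIBAN1 3.17 higher (SE 0.22, adjusted p = 2.2e-06) and EIF2AK2 (PKR), an eIF2 kinase that binds double-stranded RNA, 1.87 higher (SE 0.14, adjusted p = 4.3e-06). GADD45A, a growth-arrest gene, gave -3.06 (SE 0.22, adjusted p = 2.8e-06). For neither list did any gene pass for APRIL in HBL-1 or in BJAB. In HBL-1 the smallest p-values belonged to KDELR1, a retrieval receptor for chaperones, at 0.58 (SE 0.22, adjusted p = 0.52), UGGT1 at 0.44 (SE 0.21, adjusted p = 0.58), CARS1 at 1.03 (adjusted p = 0.48) and SLC6A9 at 0.60 (adjusted p = 0.51). CARS1 was 0.47 without APRIL replicate 2, SLC6A9 0.38 without EDA replicate 1 and 0.53 without APRIL replicate 2, and UGGT1 0.30 without APRIL replicate 2. In BJAB they belonged to KDELR1 at -0.37, FKBP2 at 0.36, PYCR1 at 0.49 and KLHL24 at -0.52, each with adjusted p = 1. Without APRIL replicate 2 KDELR1 was -0.22 and KLHL24 -0.28, and without EDA replicate 1 FKBP2 was 0.16.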

How the data were processed

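RNA was measured on 8 arrays, 4 of each line. The authors deposited log2 signals. Per the submitters' processing notes these come from RMA in Affymetrix Expression Console, with no version stated. The annotation release is not given in the sources used here. Of 138745 transcript clusters, 36176 carried 1 symbol, and the brightest cluster per gene gave 33616 genes. DNAJB11, EDEM1 and PHGDH had several. Arrays give no read depth: the median standard error was 0.25 within a line and 0.17 between lines.

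All genes were fitted in limma 3.58.1 (R 4.3.3; lmFit, eBayes, 1 mean per group, 4 residual and 6.02 prior degrees of freedom). Tests were two-sided and adjusted by Benjamini-Hochberg over all genes, and the code was tested on simulated data. The members, gene lists and naming rule were chosen with earlier results of these data known. For the lines, the rule gave array values for up to 4 passing genes per role with the smallest p. For each ligand comparison it took the 3 smallest p-values among chaperone and degradation genes and the 3 among integrated stress and amino acid genes, and for other lists up to 4 passing genes, or 2 where none passed. Genes outside it are named as such. Arrays were not treated as paired by replicate number. Correlations of deviations between groups ran from -0.02 to 0.06. They show no strong effect shared by a replicate number, but cannot settle whether such arrays were handled together. Alternatives changed the gene filter, the cluster used, the normalization, the variance model, array weights, the arrays fitted, the genes tested and a replicate block, and left out each array. The cluster shared by HSP90B1 and MIR3652 was added after seeing the data. Levels of members were not compared between genes, and lists were not tested.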

Additional observations from a re-analysis of the deposited data

How the results depend on the processing

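With only 2 arrays per group, the arrays limit every ligand comparison. No member passed for APRIL against EDA in either line, on average or in the difference of responses under any alternative run. Between the lines, 20 to 25 members passed. The calls of HSP90B1, EIF2AK3, ATF4, ATF3 and PSPH were lost in at least 1 alternative, and PSAT1, SLC7A11 and PDIA6 passed in some. The other 17 calls held in all that were run. VLDLR and CHAC1 have no value under the filter for genes above the median level. The cause of these changes was not tested.

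The 1 gene that passed in HBL-1 became 0 with that filter, with every cluster tested, with array weights, with the replicate block, with HBL-1 arrays alone, and in the fits that left out an array (0 to 0). On average over both lines the 0 genes became 2 with the filter and 1 with an intensity trend and robust shrinkage. Leaving out an array moved the median of the chaperone and degradation genes between -0.06 and 0.38 in HBL-1, and from 0.04 to 0.38 in the difference of responses, the highest without HBL-1 with APRIL replicate 1.

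Only differences that had not passed changed sign. Averaging the clusters of a gene gave -0.05 for DNAJB11 and 0.06 for PHGDH between the lines, quantile normalization 0.06 for SDF2L1, and cyclic loess 0.07 for SDF2L1. Leaving out an array gave, between the lines, -0.01 to 0.20 for DNAJB11, -0.21 to 0.11 for SDF2L1, -0.20 to 0.22 for SEL1L, -0.03 to 0.20 for ATF6, -0.46 to 0.01 for CHAC1 and -0.03 to 0.39 for SESN2. It gave 0 to 0.83 for SEL1L and -0.14 to 0.10 for CREBRF with APRIL in HBL-1, and -0.84 to 0.09 for ATF3 in BJAB. For the difference of responses PPP1R15A ran from -0.25 to 0.58 and was -0.04 under quantile normalization. The cluster shared with MIR3652 gave 0.06 for HSP90B1 in BJAB.

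The replicate numbers are shared by the groups, and the labels do not say whether arrays with the same number were handled together. With the replicate number as a block, 23 members passed between the lines, SLC7A11 among them (-0.75, adjusted p = 0.0091), and 0 in each ligand comparison.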

Other observations

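Cytosolic and mitochondrial heat shock genes, which answer mainly to HSF1 and not to the sensors of the endoplasmic reticulum, also differed between the lines. The list also holds HSF1 itself. Of 11 genes on it that were measured, 8 passed (limma), 3 higher and 5 lower in HBL-1. Over all genes 24.2% passed, and 50.1% of protein-coding genes above the median level. Among those higher was HSF1, at 0.81 (SE 0.16, adjusted p = 0.0034). HSPD1, the mitochondrial chaperonin, read 10.93 to 11.88 in HBL-1 and 13.35 to 13.7 in BJAB, a difference of -1.95 (SE 0.21, adjusted p = 5e-05). CHORDC1, a partner of Hsp90, gave -1.37 (SE 0.15, adjusted p = 5.6e-05) and HSPB1, a small heat shock protein, -0.82 (SE 0.14, adjusted p = 0.0018). BAG3, a partner of Hsp70, read 4.87 to 5.53 in HBL-1 and 3.86 to 4.31 in BJAB, 1.09 higher (SE 0.19, adjusted p = 0.0015), on a dim cluster. The cytosolic Hsp90 genes went apart, with HSP90AB1 at 0.56 (SE 0.14, adjusted p = 0.012) and HSP90AA1 at -0.71 (SE 0.16, adjusted p = 0.0071), a pair named after their values were seen. None of the 11 passed for APRIL against EDA in either line.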
